A study of Mus musculus with 8 samples.

Results

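The cholesterol and fatty acid synthesis genes described here are 36 genes of the sterol regulatory element-binding protein (SREBP) pathway, chosen by gene name, out of 45706 genes in the deposited tables. They comprise 7 enzymes of the mevalonate pathway, 11 enzymes that make squalene and turn it into cholesterol, 5 regulators of SREBP, 9 enzymes that make or desaturate fatty acids and 4 genes of sterol transport and efflux. The study compared, by bulk RNA sequencing, natural killer (NK) cells from the tumour (tuNK) with NK cells from the spleen (spNK). All samples came from BALB/c mice inoculated under the skin with CT26_β2m-/- cells, a mouse colorectal carcinoma line without β2-microglobulin and so without normal surface MHC class I. There were 4 libraries titled spNK and 4 titled tuNK, and the labels name no group from tumour-free mice. The cells were sorted with magnetic beads and by flow cytometry, with no sort markers given, and an age, a sex or a time after inoculation was not stated. The labels also do not say whether replicates came from separate mice or pools, so p-values here measure only the spread between these samples, which may be technical. In all 8 samples the tissue tag and source name go against the title, with spNK samples tagged as tumour and tuNK samples tagged as spleen. Directions follow the titles throughout: if the tags are the correct labels, every direction is turned round.

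Cholesterol is built from acetyl-CoA through mevalonate, farnesyl diphosphate and squalene. When membrane sterol is low, SCAP carries the SREBP precursors from the endoplasmic reticulum to the Golgi, where they are cut, and the released factors switch on the enzymes of sterol synthesis (chiefly SREBP2) and of fatty acid synthesis (chiefly SREBP1). INSIG proteins hold SCAP back when sterol is high, and oxysterols then activate liver X receptors, which switch on the cholesterol exporters ABCA1 and ABCG1. Lymphocytes that are activated and divide use SREBP-driven synthesis to supply membrane lipid.

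Libraries held 38745733 to 53886933 estimated counts, and 14006 genes had enough counts to be tested. Levels between groups are in CPM (counts scaled to library size with TMM), and levels between genes are in TPM, which allows for transcript length. The 7 NK markers were present in both groups, with summed levels of 9538 to 13805 CPM in spNK and 3014 to 4315 CPM in tuNK, and all 7 were lower in tuNK. All 9 markers of fibroblasts and mesenchymal tumour cells were higher in tuNK, with a sum of 10.6 to 43.1 CPM in spNK (Lum at 0 in every spNK library) and 3051 to 4665 CPM in tuNK. Of 6 epithelial markers 4 were higher, with a sum of 1.22 to 10 CPM in spNK (Krt20 at 0) and 47.1 to 67.9 CPM in tuNK. These markers moved with every rise described below, and their part in those rises was not tested. In spNK, replicate 3 held the most macrophage marker RNA (268 CPM against 43.2 CPM in the lowest spNK library; 7.61 to 14.8 CPM in tuNK) and the most erythroid marker RNA (132 CPM; 0 to 0.0255 CPM in tuNK). That library also had the highest spNK sums of mesenchymal (43.1 CPM) and epithelial (10 CPM) markers and the lowest NK sum (9538 CPM). Most of the macrophage sum was Lyz2, which reached 243 CPM in its highest spNK library. Only Lyz2 and Csf1r, of the 5 macrophage markers tested, were lower in tuNK, and none was higher. Of 5 adipocyte markers, Adipoq, Cidec, Lep and Plin1 were at 0 in every tuNK library, and Fabp4, the only one tested, was higher in tuNK (0.374 to 3.93 CPM, log2 fold change 3.38). Summed levels of 30 genes expressed across leukocytes were 18630 ± 2059 CPM in spNK and 5752 ± 757 CPM in tuNK (SD, n = 4 each). The remaining marker lists, of B cells, T cells and neutrophils, had lower sums in every tuNK library. Scaling each library to those 30 leukocyte genes moved the median over all genes by 1.76 on the log2 scale, from 0.02 to 1.78, and fold changes under that scaling are given beside the others as leukocyte-scaled. In bulk RNA, fewer cells of a type and less RNA per cell cannot be told apart.

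Most of the cholesterol and fatty acid synthesis genes were higher in tuNK, and the few that were lower lie at the acetate, reductase and efflux ends of the pathway. All 36 members were tested and 33 passed in either direction, against 69.6% of all genes. Of these, 29 (80.6% of the 36) were higher, against 35.6% of all genes tested, and 4 (11.1%) were lower, against 34.0% (edgeR quasi-likelihood test, Benjamini-Hochberg adjusted over all genes tested, threshold 0.05). The 4 lower members were Dhcr7, Acss2, Abca1 and Abcg1, and the 3 that did not pass were Elovl6, Acly and Nr1h2. In 29 members every tuNK library lay above every spNK library, as in 34.4% of all genes, and in 4 members every tuNK library lay below, as in 32.7%. A rise of at least 2-fold was called in 23 members, against 21.9% of all genes, and a fall of at least 2-fold in 3, against 19.3%. The median log2 fold change of the members was 1.25 (range -1.95 to 6.53), beside 0.02 over all genes tested. After leukocyte scaling 33 members were higher, against 79.3% of all genes, and none of the 36 was lower, against 5.94%. The leukocyte-scaled median of the members was 3.02 beside 1.78 for all genes, and 30 of 36 members lay above that median.

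**Figure D1:**
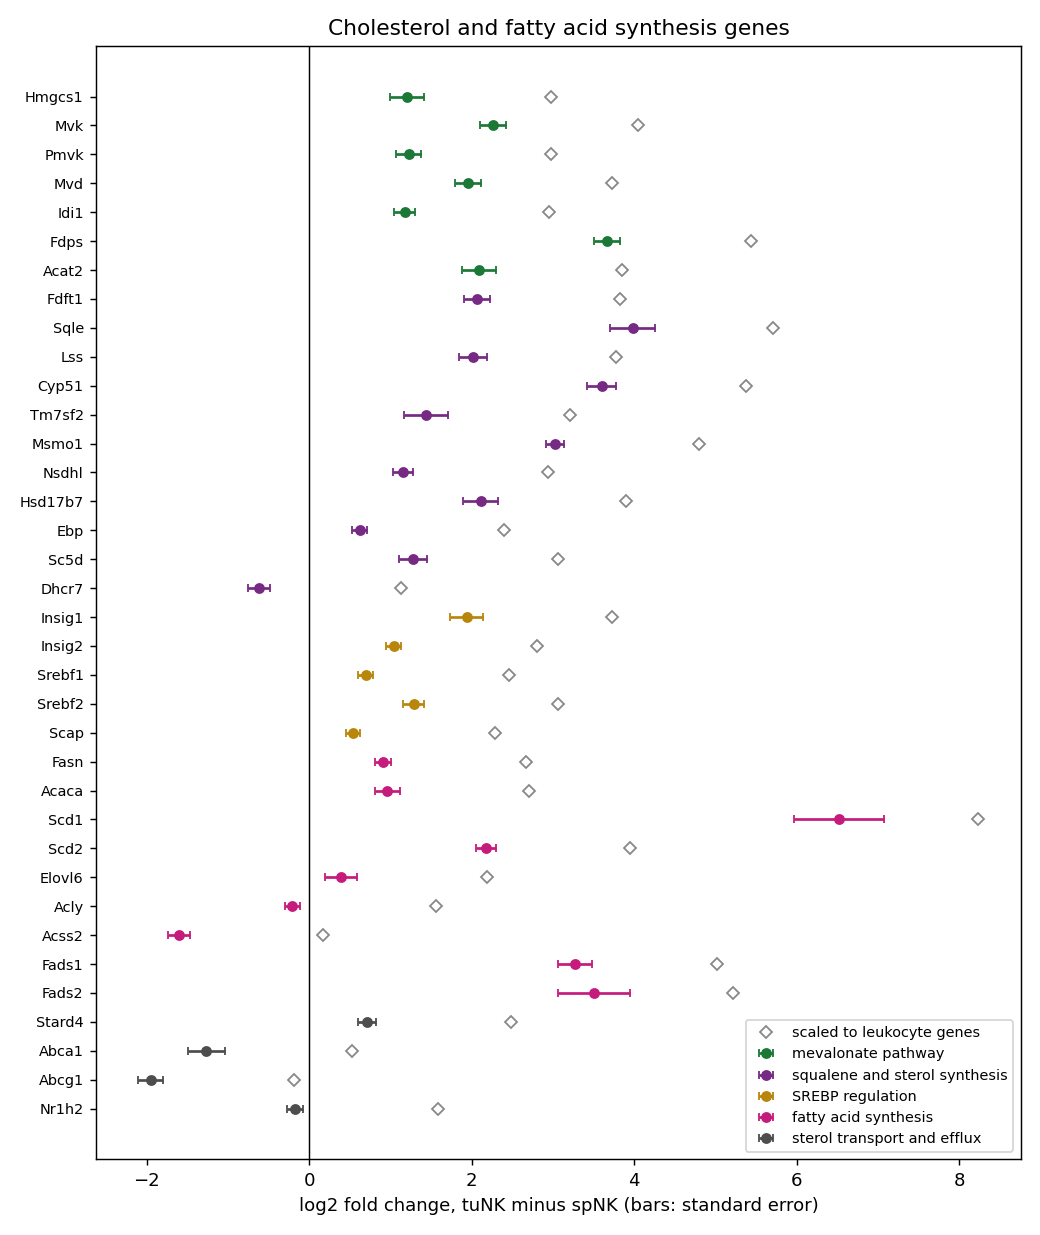
Log2 fold change (tuNK minus spNK) of the 36 members, coloured by role, with bars of 1 standard error from the fit to 4 libraries per group, and open diamonds for the leukocyte-scaled value. Filled points of the mevalonate group all lie right of 0, Scd1 lies farthest right at 6.53 and Abcg1 farthest left at -1.95, and every diamond except that of Abcg1 (-0.18) lies right of 0.

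Promoter sequences of members are shown here because SREBPs bind promoters together with the factors NF-Y and Sp1. RefSeq promoters of mouse build GRCm38.p6, each running from 250 bases before to 50 bases after a transcription start, were matched to 28 members by symbol (36 promoters). Fdps, Fdft1, Sqle, Scd1, Scd2, Fads1, Stard4 and Abcg1 had no match. The next lines give the 250 bases before the start, 5′ to 3′ on the gene's strand, for Hmgcs1 (chr13:119690101-119690350, plus strand), Mvk (chr5:114444019-114444268, plus strand), Cyp51 (chr5:4104698-4104947, minus strand) and Msmo1 (chr8:64733579-64733828, minus strand). They were picked after their values and motifs were seen, the first for its sterol response element and the others as genes that rose and hold an NF-Y box. Fads2, which rose more than Mvk and Msmo1, holds no NF-Y box in its window and is not shown. Capitals mark the sterol response element TCACNCCAC and the NF-Y box CCAAT, or ATTGG where the box is on the opposite strand.
Hmgcs1: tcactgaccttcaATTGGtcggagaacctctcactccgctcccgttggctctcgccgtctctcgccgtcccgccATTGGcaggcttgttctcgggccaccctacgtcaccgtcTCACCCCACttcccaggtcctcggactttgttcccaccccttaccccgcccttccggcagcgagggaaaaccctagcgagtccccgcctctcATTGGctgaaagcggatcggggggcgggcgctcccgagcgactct
Mvk: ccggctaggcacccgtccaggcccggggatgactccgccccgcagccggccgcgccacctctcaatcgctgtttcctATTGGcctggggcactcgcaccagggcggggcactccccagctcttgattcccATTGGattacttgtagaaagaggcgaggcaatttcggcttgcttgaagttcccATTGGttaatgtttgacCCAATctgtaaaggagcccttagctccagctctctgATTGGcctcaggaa
Cyp51: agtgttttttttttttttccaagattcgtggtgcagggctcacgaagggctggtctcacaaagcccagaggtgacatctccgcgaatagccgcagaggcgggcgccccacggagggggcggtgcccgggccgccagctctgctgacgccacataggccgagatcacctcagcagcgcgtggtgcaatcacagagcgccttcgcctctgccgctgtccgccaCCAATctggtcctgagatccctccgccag
Msmo1: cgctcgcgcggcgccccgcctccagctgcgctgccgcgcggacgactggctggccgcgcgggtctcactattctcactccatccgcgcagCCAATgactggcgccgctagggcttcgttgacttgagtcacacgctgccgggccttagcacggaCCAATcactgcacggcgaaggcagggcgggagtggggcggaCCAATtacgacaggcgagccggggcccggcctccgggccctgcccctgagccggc
The 250 bases shown for Hmgcs1 hold the letters TCACCCCAC, with their first base 137 bases before the start. They also hold 3 NF-Y boxes, beside 4 in the full window of Hmgcs1. The bases shown for Mvk hold 5 NF-Y boxes, those for Cyp51 1 and those for Msmo1 3.

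Across the 28 members with a promoter, searched on both strands of the full windows, the NF-Y box CCAAT occurred in 21 (75.0%), against 41.1% of 27018 genes. Counted by promoter, it was in 22 of 36 (61.1%), against 37.4% of 32841. By role, it was found in 9 of 9 matched enzymes of sterol synthesis, 5 of 6 of the mevalonate pathway, 4 of 5 SREBP regulators, 3 of 6 fatty acid enzymes and 0 of 2 transport genes. The 21 members with the box include Dhcr7 and Acss2, which were lower in tuNK, and Acly, which did not pass. The GC box GGGCGG, the letters Sp1 is known to bind, was in 23 of 28 members (82.1%), against 38.2% of genes. The E-box CACGTG was in 6 members (21.4%; Hsd17b7, Sc5d, Dhcr7, Insig1, Scap and Abca1), against 8.09% of genes. The sterol response element TCACNCCAC was in 1 member (3.57%), Hmgcs1, against 1.44% of genes. No motif overlapped a different motif in the 36 promoters, and overlap between copies of the same motif was not examined. The 27018 genes include genes that were not tested here, whereas all members were tested. Shares among tested genes alone were not computed, so a motif share above that of all genes may not be particular to this pathway. A match describes letters in a window and is no evidence of binding in these cells.

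All 7 mevalonate pathway genes were higher in tuNK, and their median was 1.96 on the log2 scale (leukocyte-scaled 3.73). Fdps (chr3:89093588-89101959, GRCm38), which makes the farnesyl diphosphate used for sterols and for protein prenylation, had 22.2, 22.8, 29.4 and 23.9 CPM in spNK 1 to 4 and 377, 293, 346 and 232 CPM in tuNK 1 to 4. The groups were far apart, with tuNK 4 the lowest of its group. The means were 24.6 ± 3.29 and 312 ± 63.4 CPM (SD, n = 4 each), a 12.7-fold difference (log2 fold change 3.67 ± 0.17, SE, adjusted p = 2.99e-08). Mvk (chr5:114444269-114460591), the kinase that phosphorylates mevalonate, had 10.7, 13.8, 11.5 and 10.4 CPM in spNK and 62.4, 51.7, 66.5 and 42.3 CPM in tuNK. Every tuNK library was above every spNK library, and tuNK 3 was the highest. The log2 fold change of Mvk was 2.26 ± 0.16 (4.79-fold, adjusted p = 5.73e-07). Acat2, a cytosolic thiolase that joins acetyl-CoA units, had 17.7, 16.4, 24.3 and 24.6 CPM in spNK and 120.3, 87.4, 80.9 and 65.1 CPM in tuNK, with a log2 fold change of 2.09 ± 0.21 (adjusted p = 8.46e-06). Reads of Acat2 may be shared with its close mouse paralog Acat3, which the counting could split. The group of tuNK was spread between replicate 1 at the top and replicate 4 at the bottom. Mvd, the decarboxylase that yields isopentenyl diphosphate, had 9.24, 9.76, 9.23 and 11.3 CPM in spNK and 48.9, 40.6, 33.2 and 31.0 CPM in tuNK, again with no overlap (log2 fold change 1.96 ± 0.16, adjusted p = 1.49e-06). Smaller rises were measured for Hmgcs1, the HMG-CoA synthase (2.30-fold, log2 fold change 1.2 ± 0.21), for Pmvk, the second kinase of the pathway (2.34-fold, 1.23 ± 0.16), and for Idi1, the isopentenyl diphosphate isomerase (2.26-fold, 1.18 ± 0.13).

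Of the 11 enzymes from squalene synthase onwards, 10 were higher, 9 of them by at least 2-fold, and 1 was lower, with a group median of 2.01 (leukocyte-scaled 3.77). Sqle (chr15:59315077-59331192), the squalene epoxidase and a rate-limiting step, had 6.56, 8.22, 15.1 and 12.6 CPM in spNK and 201, 178, 159 and 133 CPM in tuNK. No spNK library came near the lowest tuNK library. The log2 fold change was 3.98 ± 0.27 (15.8-fold, adjusted p = 1.26e-06), and in TPM the level went from 4.58 ± 1.65 to 61.9 ± 16.0 (SD, n = 4 each). Cyp51 (chr5:4081145-4104746), the lanosterol 14-demethylase, had 17.5, 18.4, 15.5 and 19.9 CPM in spNK and 279, 231, 195 and 159 CPM in tuNK. The tuNK libraries were spread widely and all lay above spNK, at a log2 fold change of 3.60 ± 0.17 (12.1-fold, adjusted p = 4.86e-08). Msmo1 (chr8:64718139-64733792), which removes the methyl groups at carbon 4 of the sterol, had 21.9, 21.4, 18.4 and 22.8 CPM in spNK and 185, 181, 177 and 146 CPM in tuNK. Both groups of Msmo1 were tight, and the log2 fold change was 3.03 ± 0.11 (8.15-fold, adjusted p = 7.09e-09). Hsd17b7, a 3-ketosterol reductase of the same demethylation, was low, with 4.14, 4.31, 3.35 and 4.44 CPM in spNK and 22.9, 19.0, 16.0 and 12.4 CPM in tuNK (log2 fold change 2.11 ± 0.21, adjusted p = 6.99e-06). Its groups did not overlap.

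Other enzymes of the sterol branch rose by less. Squalene synthase Fdft1 was 4.19-fold higher (log2 fold change 2.07 ± 0.16) and lanosterol synthase Lss 4.04-fold higher (2.01 ± 0.17). The rise was 2.71-fold for the sterol 14-reductase Tm7sf2, 2.43-fold for the desaturase Sc5d, 2.23-fold for the dehydrogenase Nsdhl and 1.54-fold for the isomerase Ebp. Ebp missed the threshold on log2(TPM + 1) without a filter (0.27, adjusted p = 0.0637). The exception was Dhcr7 (chr7:143823145-143848410), the reductase that makes cholesterol from 7-dehydrocholesterol, described in full after its values were seen. It had 49.9, 47.4, 46.4 and 61.3 CPM in spNK and 30.4, 41.8, 29.8 and 31.8 CPM in tuNK. The lowest spNK library stayed above the highest tuNK library, tuNK 2, by a small margin. The log2 fold change of Dhcr7 was -0.61 ± 0.14 (1.53-fold lower, adjusted p = 0.00194), but leukocyte scaling turned it to a rise of 1.13 (adjusted p = 2.18e-05), which was still under the leukocyte-scaled median of all genes. Its value was the lowest of the 11 sterol enzymes under either scaling, with Ebp the next.

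All 5 SREBP regulators were higher (median on the log2 scale 1.04, leukocyte-scaled 2.81), 3 of them by at least 2-fold. Srebf2 (chr15:82147181-82205379), which encodes the factor for sterol genes, had 77.3, 79.9, 86.5 and 70.3 CPM in spNK and 242, 182, 183 and 160.4 CPM in tuNK. Replicate 1 of tuNK was the highest and all tuNK libraries were above spNK, at 1.29 ± 0.13 on the log2 scale (2.44-fold, adjusted p = 6e-06). Srebf1 (chr11:60199089-60222581), which encodes the factor for fatty acid genes, had 85.2, 93.3, 93.1 and 82.1 CPM in spNK and 166, 139, 137 and 131 CPM in tuNK. Its groups were also apart, with a smaller rise of 0.70 ± 0.09 (1.62-fold, adjusted p = 5.96e-05). Insig1 (chr5:28071363-28078662), itself an SREBP target, had 28.6, 29.4, 27.2 and 31.0 CPM in spNK and 168, 102, 91.2 and 84.2 CPM in tuNK. Here tuNK 1 stood well above the other tuNK libraries, and the log2 fold change was 1.94 ± 0.20 (3.84-fold, adjusted p = 1.37e-05). Insig2, the second SCAP anchor, had 21.7, 20.8, 19.2 and 21.8 CPM in spNK and 43.3, 44.9, 41.8 and 42.0 CPM in tuNK. Its libraries were nearly equal within each group, at a log2 fold change of 1.04 ± 0.09 (2.06-fold, adjusted p = 2.51e-06). Scap, the escort of SREBP, had 72.6, 59.9, 73.3 and 74.6 CPM in spNK and 104, 103, 101 and 98.0 CPM in tuNK. The rise was the smallest of the 5, 0.54 ± 0.09 (1.45-fold, adjusted p = 0.000257), and it did not pass on log2(TPM + 1), where it was 0.29 (adjusted p = 0.15).

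Among the 9 fatty acid genes the desaturases rose most, 6 genes were higher, 1 was lower and 2 did not pass, with a median of 0.96 (leukocyte-scaled 2.71). Scd1 (chr19:44394455-44407879), the stearoyl-CoA desaturase that makes oleate and palmitoleate, had 2.51, 2.11, 7.62 and 1.38 CPM in spNK and 394, 283, 309 and 273 CPM in tuNK. It was close to absent in spNK, with replicate 3 the highest there, and abundant in every tuNK library. The means were 3.41 ± 2.85 and 315 ± 54.9 CPM (SD, n = 4 each), the log2 fold change was 6.53 ± 0.55 (92.1-fold, adjusted p = 1.13e-05), and without spNK 3 it was 7.28 (156-fold, adjusted p = 1.29e-08). Scd2 (chr19:44293674-44306864), its paralog on the same chromosome, had 94.6, 105, 77.8 and 91.3 CPM in spNK and 489.7, 436, 379 and 360.1 CPM in tuNK. Unlike Scd1 it was well expressed in both groups, and it rose by 2.17 ± 0.13 on the log2 scale (4.52-fold, adjusted p = 1.32e-07). The counting could exchange some reads between these similar paralogs.

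The neighbouring desaturases of polyunsaturated fatty acids followed. Fads1 (chr19:10182888-10196877), the delta-5 desaturase, had 24.6, 21.8, 42.4 and 30.3 CPM in spNK and 328, 255, 311 and 257 CPM in tuNK (log2 fold change 3.27 ± 0.21, 9.67-fold, adjusted p = 4.72e-07). Fads2 (chr19:10062765-10101746), the delta-6 desaturase, had 3.05, 3.92, 13 and 5.51 CPM in spNK and 86.2, 62.4, 78.2 and 62.7 CPM in tuNK (log2 fold change 3.51 ± 0.45, 11.4-fold, adjusted p = 0.000131). For both genes spNK 3 was the highest spNK library and still below every tuNK library. Among spNK libraries, spNK 3 had the most macrophage, erythroid, mesenchymal and epithelial marker RNA, and the part of these markers was not tested. Without spNK 3 the value of Fads2 was 4.11 (17.3-fold, adjusted p = 1.4e-07).

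The core synthesis enzymes changed less than the desaturases. Fasn (chr11:120805846-120824547), the fatty acid synthase, had 191, 200.2, 209 and 209.8 CPM in spNK and 435, 406, 351 and 329.7 CPM in tuNK. The groups did not overlap and the log2 fold change was 0.91 ± 0.10 (1.88-fold, adjusted p = 1.27e-05). Acaca, the acetyl-CoA carboxylase that commits carbon to fatty acids, went from 33.8 ± 4.73 to 65.9 ± 14.2 CPM (log2 fold change 0.96 ± 0.16, adjusted p = 0.000238). Elovl6, which elongates palmitate, had 32.1, 32.6, 24.6 and 28.5 CPM in spNK and 55.7, 34.7, 37.0 and 27.1 CPM in tuNK. Replicate 4 of tuNK fell within the spNK range, and the difference of 0.39 ± 0.20 did not pass (adjusted p = 0.102). Without tuNK 4 the difference of Elovl6 was 0.52 and passed (adjusted p = 0.0279).

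The enzymes that supply acetyl-CoA did not rise with the rest. Acss2 (chr2:155517948-155585724), which makes acetyl-CoA from acetate, had 73.2, 67.0, 75.7 and 71.7 CPM in spNK and 30.9, 22.6, 22.1 and 19.6 CPM in tuNK. Every tuNK library was below every spNK library, at a log2 fold change of -1.60 ± 0.14 (3.03-fold lower, adjusted p = 2.03e-06), whereas the leukocyte-scaled value was 0.17 (adjusted p = 0.443). Acly, which makes acetyl-CoA from citrate, had 313, 309, 274 and 278 CPM in spNK and 288, 257, 239.8 and 234 CPM in tuNK. In TPM the means of Acly were level, at 78.4 in spNK and 78.8 in tuNK. In CPM the groups overlapped at tuNK 1 and the log2 fold change of -0.21 ± 0.09 did not pass (adjusted p = 0.0642). That value sits at the threshold: it was called lower without spNK 3 (-0.25, adjusted p = 0.0384) and without tuNK 1 (-0.28, adjusted p = 0.0144), without both (-0.31, adjusted p = 0.00766), with upper quartile factors (-0.26, adjusted p = 0.0255) and with library size alone (-0.37, adjusted p = 0.00805), and leukocyte scaling gave 1.57.

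**Figure D2:**
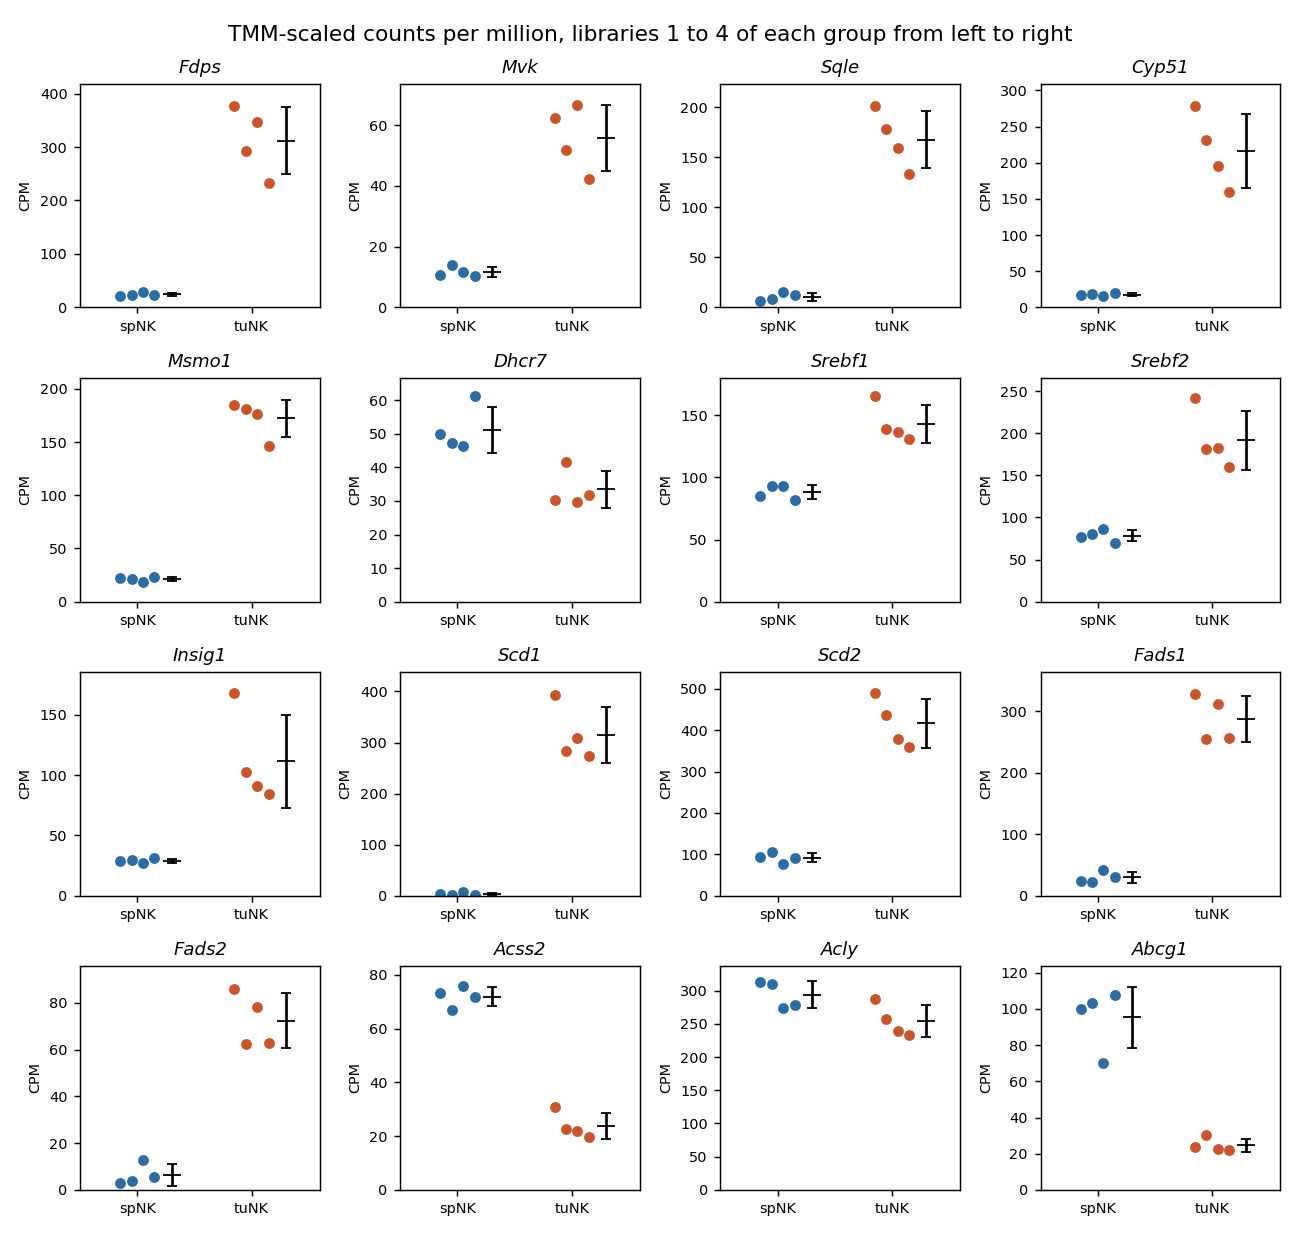
TMM-scaled CPM of 16 members, 1 panel per gene with the vertical axis from 0, with libraries 1 to 4 of spNK (blue) and tuNK (orange) from left to right, and the mean with 1 SD (n = 4) in black. The points of the groups overlap in the panel of Acly, lie below spNK in tuNK for Dhcr7, Acss2 and Abcg1, and lie above spNK in tuNK for the other members shown.

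Transport and efflux genes went differently: 1 of 4 was higher, 2 were lower and 1 did not pass, with a median of -0.72, which leukocyte scaling turned to 1.05. Abcg1 (chr17:31057675-31117988), an exporter of cholesterol to lipoprotein particles, had 99.9, 103, 70.4 and 108 CPM in spNK and 23.9, 30.1, 22.6 and 22.1 CPM in tuNK. It was several-fold lower in every tuNK library, with a log2 fold change of -1.95 ± 0.15 (3.86-fold lower, adjusted p = 1.11e-06; leukocyte-scaled -0.18, adjusted p = 0.261). Abca1 (chr4:53030787-53159895), which exports cholesterol to lipid-poor apolipoprotein, had 31.4, 22.1, 19.4 and 18.8 CPM in spNK and 12.1, 10.7, 9.23 and 6.20 CPM in tuNK. The tuNK libraries were all lower, at -1.26 ± 0.23 (2.40-fold lower, adjusted p = 0.000562), and under leukocyte scaling the value was 0.53 (adjusted p = 0.0698). Stard4, which carries cholesterol within the cell, had 35.4, 38.3, 31.4 and 42.0 CPM in spNK and 69.0, 61.6, 56.9 and 53.6 CPM in tuNK, a rise of 0.71 ± 0.12 (1.64-fold, adjusted p = 0.000252). Its groups did not overlap. Nr1h2, which encodes the liver X receptor β, had means of 105 ± 6.41 and 93.5 ± 9.93 CPM, with overlapping libraries (log2 fold change -0.17 ± 0.09, adjusted p = 0.122). It passed as lower without tuNK 4 (-0.24, adjusted p = 0.0498), with library size alone (-0.34, adjusted p = 0.0091) and on log2(TPM + 1) (-0.45, adjusted p = 0.00563), and leukocyte scaling gave 1.58.

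Ratios of 2 members within a library do not depend on scaling between libraries, and 7 pairs of linked function were compared in TPM. The ratio differed between groups in 5 of 7 pairs (two-sided exact permutation test over 70 assignments, smallest possible p = 0.0286, adjusted over the 7 pairs). None of the 7 had an adjusted p under 0.05 with counts in place of TPM (exact test, lowest adjusted p = 0.05) or when spNK 1, spNK 2, spNK 3, spNK 4 or tuNK 1 was left out (exact test, lowest adjusted p = 0.05 to 0.0667). The adjusted p of a pair depends on how many of the 7 pairs reach the smallest possible p. A pair can therefore miss the threshold because another pair moved. For Scd1 over Scd2 the log2 difference was 4.66 in TPM and 4.66 in counts. The ratio of Scd1 to Scd2 was 0.0301, 0.0228, 0.111 and 0.0172 in spNK 1 to 4 and 0.912, 0.735, 0.924 and 0.860 in tuNK 1 to 4. The 2 desaturases were thus near parity in tuNK while Scd2 prevailed in spNK, a 25.2-fold difference in ratio (exact p = 0.0286, adjusted p = 0.04). For Acly over Acss2 the ratio was 2.64, 2.86, 2.19 and 2.42 in spNK and 7.75, 10.1, 9.71 and 10.5 in tuNK. The citrate route was represented more strongly relative to the acetate route in every tuNK library, by 3.76-fold in TPM (exact p = 0.0286, adjusted p = 0.04). The log2 difference of this ratio was 1.91 in TPM but 1.41 in counts.

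Ratios among the regulators moved less. Srebf1 over Srebf2 was 1.55, 1.91, 1.76 and 1.73 in spNK and 0.929, 1.28, 1.2 and 1.13 in tuNK, 1.54-fold lower (exact p = 0.0286, adjusted p = 0.04). Insig1 over Insig2 was 0.511, 0.721, 0.721 and 0.423 in spNK and 1.57, 1.01, 0.761 and 0.901 in tuNK, 1.76-fold higher (exact p = 0.0286, adjusted p = 0.04). The sterol-gene factor and the inducible anchor were the members that gained relative to their partners. Without tuNK 1, the Insig1 to Insig2 difference was 0.61 on the log2 scale (exact test, adjusted p = 0.1). Elovl6 over Fasn was 1.43-fold lower in tuNK (exact p = 0.0286, adjusted p = 0.04), with spNK 3 and tuNK 1 both at 0.168. The ratio of counts in place of TPM did not pass for that pair (-0.55, exact test, adjusted p = 0.0667). Abca1 over Abcg1 differed by 0.80 on the log2 scale (exact p = 0.0571, adjusted p = 0.0667) and Fads1 over Fads2 by -0.42 (exact p = 0.143, adjusted p = 0.143), and in both pairs the groups overlapped.

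**Figure D3:**
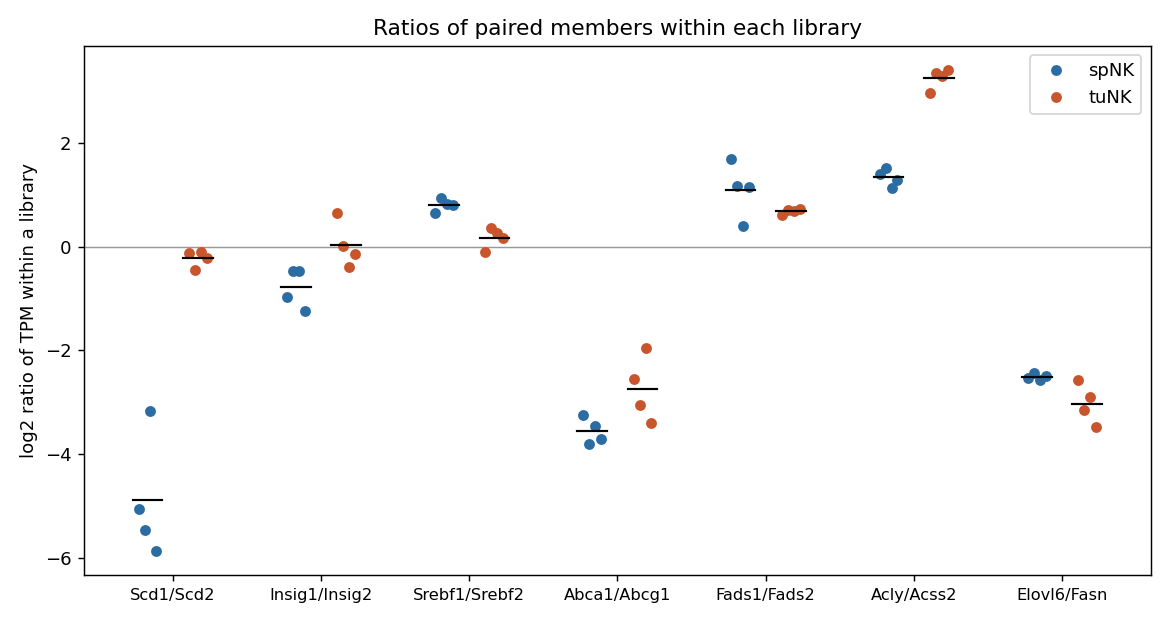
Log2 ratio of TPM of 7 pairs of members within each library (points; 4 spNK in blue and 4 tuNK in orange), with black lines for group means. The Scd1 to Scd2 ratio lies near 0 in tuNK and below -3 in every spNK library, and the groups overlap for Abca1 over Abcg1 and Fads1 over Fads2.

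Summed by role in TPM, the mevalonate genes made up 101 ± 6.51 TPM in spNK and 485 ± 130 TPM in tuNK (SD, n = 4 each), a ratio of 4.79. The sum went from 168 ± 16.7 to 429 ± 85.4 TPM for the sterol enzymes (2.55 in TPM, 3.66 in CPM), from 194 ± 8.59 to 431 ± 91.8 TPM for the fatty acid enzymes (2.23) and from 109 ± 8.16 to 191 ± 43.6 TPM for the SREBP regulators (1.75). Transport and efflux genes summed to less in tuNK, at 115 ± 10.9 and 78.6 ± 10.8 TPM (0.685). All 36 members together summed to 687 ± 25.5 TPM in spNK and 1614 ± 356 TPM in tuNK, a ratio of 2.35, or 2.08 without spNK 3 and tuNK 1. The tuNK libraries kept an order across genes: of the 29 members that rose, 25 were highest in tuNK 1 and 25 were lowest in tuNK 4. The sum of the fibroblast and mesenchymal tumour markers was also highest in tuNK 1, at 4665 CPM, but was 3318 CPM in tuNK 4, above the 3062 and 3051 CPM of tuNK 2 and 3. The epithelial marker sum was highest in tuNK 4. The NK marker sum was 3014, 4315, 3220 and 4126 CPM in tuNK 1 to 4, so it was lowest in tuNK 1. The part of these markers in the order was not tested.

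**Figure D4:**
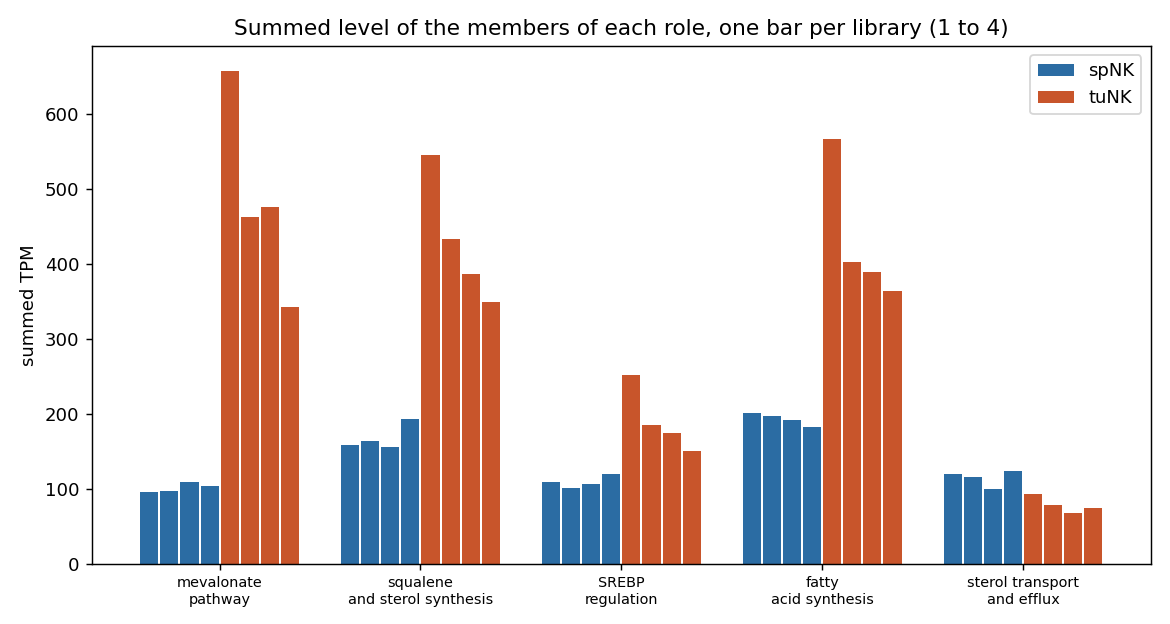
Summed TPM of the members of each role, 1 bar per library (spNK 1 to 4 in blue, tuNK 1 to 4 in orange), with no error bars because each bar is a single library. The bars of tuNK exceed those of spNK in every role except transport and efflux, and tuNK 1 has the tallest bar in the first 4 roles.

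Other lipid genes outside the 36 members changed in both directions. Of 40 listed genes of sterol, fatty acid and lipoprotein metabolism, 39 were tested, 17 (43.6%) were higher, 14 (35.9%) were lower and 8 did not pass, beside 35.6% and 34.0% of all genes. Their median log2 fold change was 0.07, and 1.81 after leukocyte scaling, beside 0.02 and 1.78 for all genes. The largest rises were in lipoprotein receptors and an NADPH source. Vldlr, the very low density lipoprotein receptor, had 12 counts in all of spNK and a level of 86.1 ± 10.6 CPM in tuNK (adjusted p = 1.87e-09). Me1, the malic enzyme that yields NADPH, had 18 counts in all of spNK and 37.0 ± 4.30 CPM in tuNK (adjusted p = 3.16e-08). Lrp1, a receptor abundant in mesenchymal cells and macrophages, went from 2.38 ± 1.45 to 209 ± 48.9 CPM (log2 fold change 6.46 ± 0.49, adjusted p = 5.48e-06), and Aacs, which activates acetoacetate for lipid synthesis, from 19.8 ± 1.28 to 104 ± 10.6 CPM (2.39 ± 0.10, adjusted p = 1.79e-08). The mesenchymal markers moved with these genes too, and their part was not tested. Among genes that were lower, Mylip, a liver X receptor target whose product degrades lipoprotein receptors, went from 162 ± 27.7 to 14.3 ± 1.90 CPM (-3.5 ± 0.15, adjusted p = 2.17e-08; leukocyte-scaled -1.74). Elovl7, an elongase, went from 43.2 ± 7.14 to 2.82 ± 0.950 CPM (-3.94 ± 0.25, adjusted p = 2.91e-07; leukocyte-scaled -2.17). Lipa, the lysosomal acid lipase that frees cholesterol from its esters, was 2.78-fold lower (-1.47 ± 0.09, adjusted p = 1.57e-07), with a leukocyte-scaled value of 0.29.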

How the data were processed

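RNA was sequenced from 4 spNK and 4 tuNK libraries, grouped by title. Per the submitters' processing notes, the authors used FastQC 0.11.9, STAR and Salmon with GRCm38 (mm10). No other version, and neither annotation nor strandedness, is stated in the labels. The deposited tables hold expected counts (estimated counts, not normalised) and TPM, both made by the authors with Salmon. Per library 7.9 to 8.82% of estimated counts were not whole, and all were rounded. In R 4.3.3, edgeR 4.0.16 (filterByExpr, TMM, robust quasi-likelihood F test) tested 14006 genes with Benjamini-Hochberg adjustment and a threshold of 0.05. The standard error of a log2 fold change is its size divided by the square root of F. Alternatives used limma 3.58.1, DESeq2 1.42.0, pseudocounts of 1 and 0.1 and other scalings, including one to 30 leukocyte genes. Scripts were tested on simulated data. The members and lists were chosen with earlier results of these data known. Values per library are given for the members that passed, did not overlap and reached 10 CPM in the higher group (up to 4 per role with the largest change), for all SREBP regulators, for members of ratio pairs and, added after its values were seen, for Dhcr7. The other lipid genes named are those with the 4 largest rises and the 4 largest falls under the same conditions, of which 1 is not reported here. Gene positions are from GENCODE M21 (GRCm38). The number of libraries, their spread and depth all limit precision.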

Additional observations from a re-analysis of the deposited data

Results flagged for a closer look

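In 3 of 98 groups of 4 libraries examined, 1 library stood apart from the other 3 by Dixon's criterion, which chance meets in about 1 in 20 groups. All 3 were groups of members, and lipid genes outside the members were not part of this count. Some of those genes also had a library far from the rest. Vldlr was 102 CPM in tuNK 1, beside 79.9 to 81.7 CPM in the other tuNK libraries. Mylip was 121 CPM in spNK 3, beside 171 to 179 CPM in the other spNK libraries. Fdft1 was 23.6 CPM in spNK 3, beside 16.3 to 17 CPM in the other spNK libraries. Dhcr7 was 41.8 CPM in tuNK 2, beside 29.8 to 31.8 CPM in the other tuNK libraries. Scap was 59.9 CPM in spNK 2, beside 72.6 to 74.6 CPM in the other spNK libraries.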

How the results depend on the processing

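Over 36 members and 22 alternatives, 764 of 792 log2 fold changes kept their direction and their side of the threshold, 10 no longer passed, 13 passed newly and 5 reversed. For 25 members no alternative changed the call or direction. All 5 reversals came from leukocyte scaling: Dhcr7 1.13, Acly 1.57, Acss2 0.17, Abca1 0.53 and Nr1h2 1.58. That scaling left 0 members lower and gave 11107 genes higher and 832 lower over all genes, and 32 higher and 3 lower among the other lipid genes. Tested against a fold of 1.5, 3028 of all genes were lower, 11 other lipid genes were higher and 8 lower, and Ebp, Dhcr7, Srebf1, Scap and Stard4 no longer passed. The sterol enzymes' summed ratio was 3.66 in CPM.

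The replicate numbers gave no clear pairing of the samples (correlations of -0.0081 to 0.042 between same-numbered libraries; 3 of 4 matched best with their own number). The labels do not say whether same-numbered libraries share a mouse, and these correlations cannot decide it. With the replicate block, 29 members were higher and 5 lower, since Acly passed (-0.21, adjusted p = 0.0328 in edgeR). Leaving out each library in turn gave 29 to 30 members higher and 4 to 5 lower, 4754 to 5156 genes higher and 4549 to 4867 lower, and 16 to 18 other lipid genes higher and 13 to 15 lower.

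By counts the log2 differences were 4.66 for Scd1 over Scd2, 0.84 for Insig1 over Insig2, -0.58 for Srebf1 over Srebf2, 1.41 for Acly over Acss2 (exact adjusted p = 0.05 each) and -0.55 for Elovl6 over Fasn (0.0667), and no pair passed. With TPM + 0.1, 6 of 7 pairs passed, Abca1 over Abcg1 among them (0.88, exact adjusted p = 0.0333). With 1 library left out the log2 differences ran from 4.33 to 5.23 for Scd1 over Scd2, 0.61 to 0.96 for Insig1 over Insig2, -0.69 to -0.53 for Srebf1 over Srebf2, 0.54 to 1.02 for Abca1 over Abcg1, -0.65 to -0.22 for Fads1 over Fads2, 1.85 to 2.01 for Acly over Acss2 and -0.66 to -0.36 for Elovl6 over Fasn. Exact adjusted p-values then ran from 0.0333 to 0.314. Without any 1 spNK library or without tuNK 1, 0 of 7 pairs passed. The same 5 as with all libraries passed without tuNK 2 or tuNK 3, and those 5 and Abca1 over Abcg1 (1.02, exact adjusted p = 0.0333) without tuNK 4. Passing depends on how many of the 7 pairs reach the smallest possible p, so 1 pair that moves can make others miss the threshold. Other causes were not tested. Each member had enough counts to be tested, though Scd1 had only 61 counts in its lowest spNK library.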

Other observations

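Lss had 26.7, 11.1, 12 and 18.2 TPM in tuNK 1 to 4 but 71.2, 54, 60.7 and 47.4 CPM, so the order of the tuNK libraries differed between the deposited TPM and the counts. In spNK the TPM of Lss were 4.15, 3.05, 4.40 and 3.66, and all tuNK libraries lay above them on both scales.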
